A study of Homo sapiens and Mus musculus with 27 samples.

Results

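The 10 genes described here are the transcription factors that drive epithelial-mesenchymal transition, the markers of the mesenchymal state and 2 epithelial regulators set against them. They were chosen by name, as ZEB1, ZEB2, SNAI1, SNAI2, TWIST1, FOXC2, VIM, CDH2, GRHL2 and ESRP1, among 78932 features of each human table, and as their 10 mouse orthologs among 25239 symbols of the mouse table. RNA was sequenced in 27 libraries that make up 9 groups of 3. Human breast cancer cells labelled HCC1937 received AMD3100 at 10 µM, TM at 10 µM or vehicle. MDA-MB-231, another human breast cancer line, received bortezomib at 10 nM together with AMD3100 at 10 µM, bortezomib at 10 nM together with TM at 10 µM, or vehicle. The mouse mammary carcinoma line 4T1 was grown as tumours in Balb/c mice, which were on bortezomib at 1 mg/kg every 4 days plus AMD3100 at 5 mg/kg every 2 days, bortezomib on the same schedule plus TM at 0.05 mg/ml in drinking water, or vehicle. Bortezomib inhibits the proteasome, AMD3100 blocks the chemokine receptor CXCR4, and TM is used as a name because the labels do not expand it. No group received bortezomib alone, so its share in the combined treatments cannot be told apart from that of its partner, and the sources used here give neither treatment times in culture nor the age of the mice. The titles call the 3 libraries of a group biological replicates without saying whether cultures were separate, so p-values measure the spread between these libraries.

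In epithelial-mesenchymal transition, epithelial cells loosen their junctions and take on a motile, spindle-shaped form. SNAI1 and SNAI2 (zinc finger proteins), ZEB1 and ZEB2 (zinc finger and homeodomain proteins) and TWIST1 (a basic helix-loop-helix protein) repress epithelial genes such as CDH1, which encodes E-cadherin, largely through E-box sequences, and FOXC2 is a forkhead factor of the mesenchymal program. VIM encodes the intermediate filament protein vimentin and CDH2 encodes N-cadherin. GRHL2 is an epithelial transcription factor that represses ZEB1, and ESRP1 directs epithelial splicing. SNAI1 is a short-lived protein that the proteasome removes, and the libraries measure mRNA and not protein.

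ZEB1 and ZEB2 are held down by microRNAs of the miR-200 family and in turn repress the genes of that family. The 5 mature sequences from RefSeq (GRCh38.p14) are shown because their seeds, bases 2 to 8 in capitals, are what pairs with the ZEB1 and ZEB2 messages. They fall into 2 groups by seed, the first 3 sharing 1 seed and the last 2 sharing the other.
hsa-miR-200b-3p: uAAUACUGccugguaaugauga
hsa-miR-200c-3p: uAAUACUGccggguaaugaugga
hsa-miR-429: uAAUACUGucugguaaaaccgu
hsa-miR-200a-3p: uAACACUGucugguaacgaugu
hsa-miR-141-3p: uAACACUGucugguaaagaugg
Poly(A) libraries do not count mature microRNAs, and the nearest measured transcript is MIR200CHG, the host gene of miR-200c and miR-141. It had between 0 and 5 counts in the libraries labelled HCC1937 and between 0 and 7 counts in MDA-MB-231, so no change in it was detectable at this depth. The 300 bases around its start (RefSeq, GRCh38.p14, chr12:6962995-6963294, plus strand, 250 bases before the start and 50 from it on) are shown because the ZEB and SNAI proteins bind E-boxes of these letters. The capitals mark the 2 E-box matches found in a search of both strands for CAGGTG and for CAGGTA.
MIR200CHG promoter: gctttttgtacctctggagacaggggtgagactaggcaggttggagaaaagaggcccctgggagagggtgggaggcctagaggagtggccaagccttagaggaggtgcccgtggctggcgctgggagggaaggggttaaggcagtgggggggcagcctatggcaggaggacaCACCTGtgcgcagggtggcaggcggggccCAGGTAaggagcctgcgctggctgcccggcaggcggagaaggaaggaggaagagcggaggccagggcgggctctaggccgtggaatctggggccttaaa
The first match begins at position -78 from the start and reads CACCTG, which is CAGGTG on the other strand, and the second reads CAGGTA and begins at position -49. They do not overlap. CAGGTG lies on either strand of 20.6% of 35116 RefSeq promoter windows of this length and CAGGTA of 9.83%. A match therefore describes the letters and does not by itself show binding.

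Libraries labelled HCC1937 held 35981504 to 43973262 counts each, those of MDA-MB-231 held 40389469 to 50283398, and those of 4T1 held 38407536 to 50735374. Replicate 1 of AMD3100 in HCC1937 stood apart. It gave 19.9% of its counts to mitochondrial genes, against 10.5% to 11.6% in the other 8 libraries of that table, and had a count for 20639 features, against at least 29335. Member calls in comparisons whose fit it enters are therefore given with and without it. Libraries labelled HCC1937 had almost no message of EPCAM (0 to 19 counts), KRT19 (0 to 26), KRT5 (0 to 4) or KRT14 (0 to 19), which are epithelial and basal markers, and 16 to 88 counts of CDH1, while the luminal keratin genes KRT8 and KRT18 ran at 1087 to 1885 and 430 to 833 CPM (counts scaled to the size of their library). They are therefore called by their label, and HCC1937 below stands for the libraries so labelled. Whether these cells are HCC1937 was not tested, so differences between the lines are differences from cells of this label. One vehicle tumour, replicate 1, carries human and MDA-MB-231 labels in other fields and was kept as 4T1 by its title, library name and table column. Levels below are CPM after trimmed mean of M-values (TMM) scaling within each table, and a gene is said to be higher or lower only at an adjusted p under 0.05 by edgeR's quasi-likelihood test with Benjamini-Hochberg adjustment over all tested genes.

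The human lines without drug differed in which of these genes they used. On a scale shared by both tables, VIM (chr10:17228259-17237593, plus strand, GENCODE release 29 on GRCh38) was higher in MDA-MB-231, with 1171, 1100 and 1202 CPM, against 295, 300.2 and 303 CPM in vehicle libraries labelled HCC1937. The log2 fold change was 1.95 (SE 0.21, adjusted p = 2.24e-07), and the libraries of the lines did not overlap. FOXC2 (chr16:86566829-86569728, plus strand) went the other way. It had 0.088, 0.045 and 0 CPM in MDA-MB-231, 4 or fewer counts per library, against 14.32, 14.05 and 14.38 CPM in HCC1937, and was lower in MDA-MB-231 at an adjusted p of 2.24e-10.

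SNAI2, a repressor also active in normal mammary basal cells, had 3.19, 2.25 and 4.18 CPM in MDA-MB-231, against 12.3, 14.9 and 15.7 CPM in HCC1937. It was lower in MDA-MB-231 by a log2 fold change of -2.16 (SE 0.28, adjusted p = 2.79e-06), with no overlap. ZEB1 (chr10:31318495-31529814, plus strand) had 4.02, 3.92 and 4.97 CPM in MDA-MB-231, against 8.85, 9.91 and 9.74 CPM in HCC1937. Its log2 fold change was -1.14 (SE 0.41, adjusted p = 0.0217), with no overlap. The call was lost without MDA-MB-231 vehicle replicate 1 (adjusted p = 0.0572) or replicate 2 (adjusted p = 0.0663). It was stronger without AMD3100 replicate 1 of HCC1937 (SE 0.28, adjusted p = 0.00109). The same held with DESeq2 (adjusted p = 0.00904) and with the vehicle groups fitted alone (adjusted p = 1.74e-05).

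ZEB2 and SNAI1 did not pass the test between the lines. ZEB2 (chr2:144364364-144524583, minus strand) had 3.25, 2.63 and 4.20 CPM in MDA-MB-231, against 1.48, 2.26 and 2.10 CPM in HCC1937, without overlap, at a log2 fold change of 0.79 (SE 0.47, adjusted p = 0.152). It passed with the vehicle groups fitted alone (0.74, adjusted p = 0.0134) and not without AMD3100 replicate 1 of HCC1937 (0.78, adjusted p = 0.0616). SNAI1 (chr20:49982999-49988886, plus strand) had 12.02, 12.37 and 9.13 CPM in MDA-MB-231, against 10.8, 9.59 and 8.62 CPM in HCC1937, so the lines overlapped. Its log2 fold change was 0.21 (SE 0.22, adjusted p = 0.421), and it was -0.15 when libraries were scaled by total count.

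In all, 4 of 6 tested members were called between the lines, VIM higher and SNAI2, ZEB1 and FOXC2 lower in MDA-MB-231, where 62.6% of all tested genes were called and 70.4% without AMD3100 replicate 1. Without that library the same 4 were called, at adjusted p of 4.84e-15 for VIM, 8.99e-08 for SNAI2, 0.00109 for ZEB1 and 2.00e-12 for FOXC2. ZEB2 (adjusted p = 0.0616) and SNAI1 (adjusted p = 0.221) were again not called. The vehicle libraries did not overlap for 5 of the 6, against 77.2% of all tested genes, so neither count stands out from the background. Of all genes 6379 were higher and 7128 lower in MDA-MB-231, and 5066 were higher and 8743 lower with total-count scaling, which moved the median log2 change of all genes to -0.59, against -0.24. Each line was sequenced as a dataset of its own, so line and experiment cannot be told apart.

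Of the 10 members, 4 were close to silent in both lines. TWIST1 (chr7:19020991-19117672, minus strand) had no count in any of the 18 human libraries. GRHL2 had no count in MDA-MB-231, and ESRP1 had 0 to 2 counts in HCC1937. In MDA-MB-231, ESRP1 had 4, 9 and 5 counts under bortezomib with AMD3100 and 0, 4 and 2 under bortezomib with TM, against 2, 6 and 18 under vehicle. CDH2 (chr18:27950966-28177446, minus strand) had at most 5 counts in any human library. For these genes 3 counts over the 3 libraries of a group, the limit that a count of 0 allows for counting error, came to 0.0213 to 0.0242 CPM in MDA-MB-231 and 0.0239 to 0.0257 CPM in HCC1937, and none of the 4 passed the filter on low counts within a line. FOXC2 did not pass it in MDA-MB-231 either, with no count in any treated library. GRHL2 was listed at 48, 0 and 15 counts under AMD3100, 4, 4 and 2 under TM and 4, 0 and 4 under vehicle in HCC1937. A transcript that overlaps it in antisense, AP001207.3, had 35, 8 and 0 counts under AMD3100, 1, 3 and 0 under TM and 0, 16 and 1 under vehicle, and the sources used here do not say whether counting used strand.

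Per kilobase of exon, which allows genes to be compared, VIM led in both lines at 224 CPM per kilobase in MDA-MB-231 and 57.8 in HCC1937. SNAI1 came next at 6.55 in MDA-MB-231 and 5.67 in HCC1937. In HCC1937, FOXC2 at 4.91 and SNAI2 at 4.36 lay close below SNAI1, and the order of these 3 was not tested. SNAI2 stood at 0.977 in MDA-MB-231, clear of ZEB1 below it. ZEB1 had 0.498 CPM per kilobase in MDA-MB-231 and 1.10 in HCC1937, and ZEB2, with the longest exon sequence of the 10 genes, had 0.129 and 0.074 in the same order. FOXC2 in MDA-MB-231 was last of the genes tested, at 0.015.

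**Figure D1:**
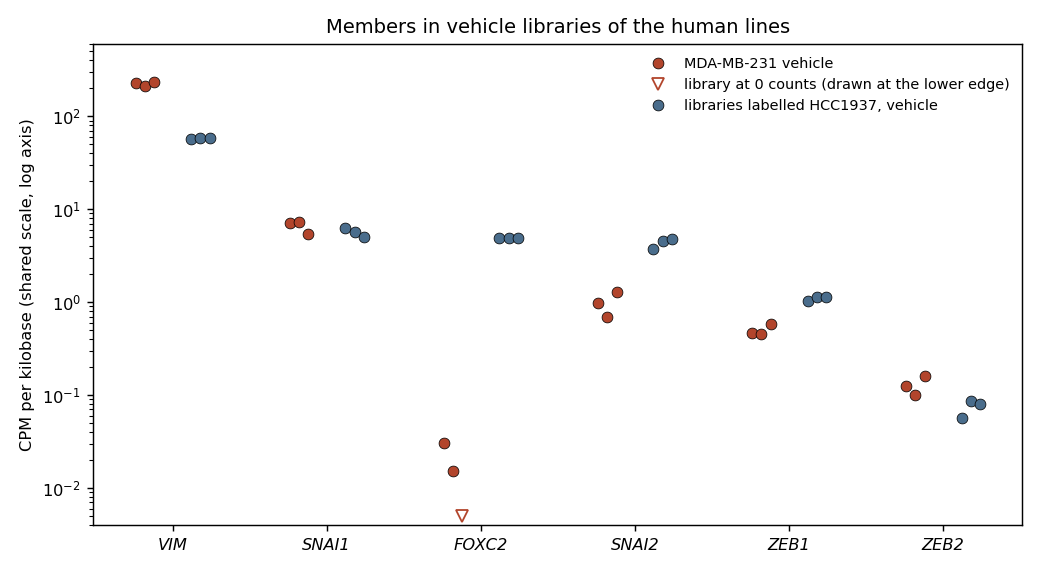
Level of the 6 detected members in the 3 vehicle libraries of MDA-MB-231 (left of each pair) and of the libraries labelled HCC1937 (right), as CPM per kilobase of exon on a log axis; each point is 1 library and an open triangle marks a library at 0 counts. VIM stands highest in both lines, FOXC2 is near the floor in MDA-MB-231 only, and the points of SNAI1 overlap between the lines.

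Genes around these regulators also differed between the lines, and their counts stand against the 62.6% of all tested genes that were called. Of 12 other factors of the transition listed, 11 were tested, 8 were higher and 3 lower in MDA-MB-231. SOX9 averaged 80.3 ± 0.970 CPM in MDA-MB-231 and was at 0 in all HCC1937 vehicle libraries, and FOXC1 averaged 19.2 ± 1.90 and 90.6 ± 2.63 CPM in the same order (SD, n = 3 each). Of 15 tested mesenchymal and matrix genes 11 were higher and 4 lower in MDA-MB-231, led by the receptor kinase gene AXL at 1407 ± 125 CPM in MDA-MB-231 and 40.5 ± 1.70 CPM in HCC1937, and by the matrix protease gene MMP14 at 145 ± 14.8 and 0.522 ± 0.145 CPM. Of 8 tested epithelial regulators 1 was higher and 6 lower in MDA-MB-231. The epithelial factor genes TFAP2A (0.749 ± 0.014 CPM in MDA-MB-231 and 194 ± 15.1 CPM in HCC1937) and ELF3 (0.236 ± 0.056 and 34.7 ± 0.914 CPM) had the smallest p. The median log2 change was 1.20 over the other factors, 2.53 over the matrix genes and -3.84 over the epithelial regulators, against -0.24 over all genes. The 12 junction genes split into 5 higher and 4 lower, with DSP lower (42.4 ± 7.40 CPM in MDA-MB-231 and 227 ± 7.61 CPM in HCC1937) and OCLN higher (4.91 ± 0.808 and 0.125 ± 0.029 CPM). Those of the TGF-beta pathway split into 5 higher and 6 lower of 12, with TGFBR1 lower (8.94 ± 1.19 CPM in MDA-MB-231 and 220 ± 7.43 CPM in HCC1937) and TGFBI higher (199.9 ± 8.60 and 16.9 ± 1.93 CPM). With total-count scaling 7 other factors were higher and 3 lower, as were 11 and 4 matrix genes and 0 and 7 epithelial regulators. The same scaling gave 4 higher and 4 lower junction genes, and 4 higher and 6 lower pathway genes.

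In MDA-MB-231, SNAI1 was higher and SNAI2 lower under both bortezomib combinations. SNAI1 had 47.3, 45.9 and 53.2 CPM under bortezomib with AMD3100, and 59.2, 54.7 and 43.8 CPM under bortezomib with TM, against 9.76, 10.3 and 7.31 CPM under vehicle. Every treated library lay above every vehicle library. Over vehicle the log2 fold change was 2.42 (SE 0.17, adjusted p = 5.92e-07) with AMD3100 and 2.53 (SE 0.17, adjusted p = 3.40e-07) with TM. Both comparisons use the same vehicle libraries. Signs of library make-up moved with these groups too. Features with a count numbered 22912 to 23228 under bortezomib with AMD3100 and 22595 to 23222 under bortezomib with TM, against 25020 to 25423 under vehicle. Mitochondrial genes took 2.80% to 3.25% of counts with AMD3100 and 2.67% to 3.02% with TM, against 3.94% to 4.06% under vehicle. Neither measure overlapped vehicle, and their part in the SNAI1 and SNAI2 values was not tested.

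SNAI2 had 0.580, 0.775 and 0.398 CPM under bortezomib with AMD3100, from 22, 31 and 15 counts, and 0.774, 0.913 and 0.424 CPM under bortezomib with TM, from 34, 34 and 19 counts, against 2.59, 1.87 and 3.35 CPM under vehicle, from 145, 101 and 175 counts. All treated libraries lay below all vehicle libraries. This was a log2 fold change of -2.15 (SE 0.37, adjusted p = 0.000531) with AMD3100 and -1.89 (SE 0.36, adjusted p = 0.000924) with TM. The paralogs SNAI1 and SNAI2 therefore moved in opposite directions in the same libraries, from low counts for SNAI2.

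ZEB1 had 9.20, 8.15 and 3.82 CPM under bortezomib with AMD3100, and 6.29, 3.71 and 9.71 CPM under bortezomib with TM, against 3.26, 3.27 and 3.98 CPM under vehicle. In each treated group 2 libraries lay above vehicle and 1 lay within it. With AMD3100 the log2 fold change was 1.01 (SE 0.36, adjusted p = 0.0377), a call lost without AMD3100 replicate 1 (0.78, adjusted p = 0.142) or replicate 2 (0.90), without any 1 of the vehicle libraries (adjusted p from 0.0617 to 0.105) and with total-count scaling (0.65, adjusted p = 0.196). With TM the log2 fold change was 0.91 (SE 0.36, adjusted p = 0.0524), which missed the threshold and passed it when the 2 groups were fitted alone (adjusted p = 0.0336) and with DESeq2 (adjusted p = 0.00727). Its antisense transcript ZEB1-AS1 moved the other way. It was lower under bortezomib with AMD3100, at 10, 8 and 4 counts, and under bortezomib with TM, at 19, 24 and 18 counts, against 72, 87 and 101 counts under vehicle. For ZEB1-AS1 the log2 fold change was -3.06 (adjusted p = 7.71e-05) with AMD3100 and -1.71 (adjusted p = 0.00184) with TM. Without strand, reads of ZEB1 and ZEB1-AS1 cannot be told apart where they overlap.

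ZEB2 and VIM did not pass the test in MDA-MB-231. ZEB2 had 4.82, 3.37 and 1.40 CPM under bortezomib with AMD3100, and 0.934, 1.37 and 2.70 CPM under bortezomib with TM, against 2.64, 2.19 and 3.37 CPM under vehicle. Its log2 fold change was 0.23 (SE 0.44) with AMD3100 and -0.71 (SE 0.45, adjusted p = 0.206) with TM, and without TM replicate 3 it was called lower at -1.23 (adjusted p = 0.0294). VIM had 927, 982 and 951 CPM under bortezomib with AMD3100, and 893, 886 and 881 CPM under bortezomib with TM, against 950.4, 915 and 964 CPM under vehicle. The TM libraries lay just below vehicle without overlap and the AMD3100 libraries overlapped it, at log2 fold changes of -0.09 (SE 0.08, adjusted p = 0.367) with TM and 0.02 (SE 0.08) with AMD3100.

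**Figure D2:**
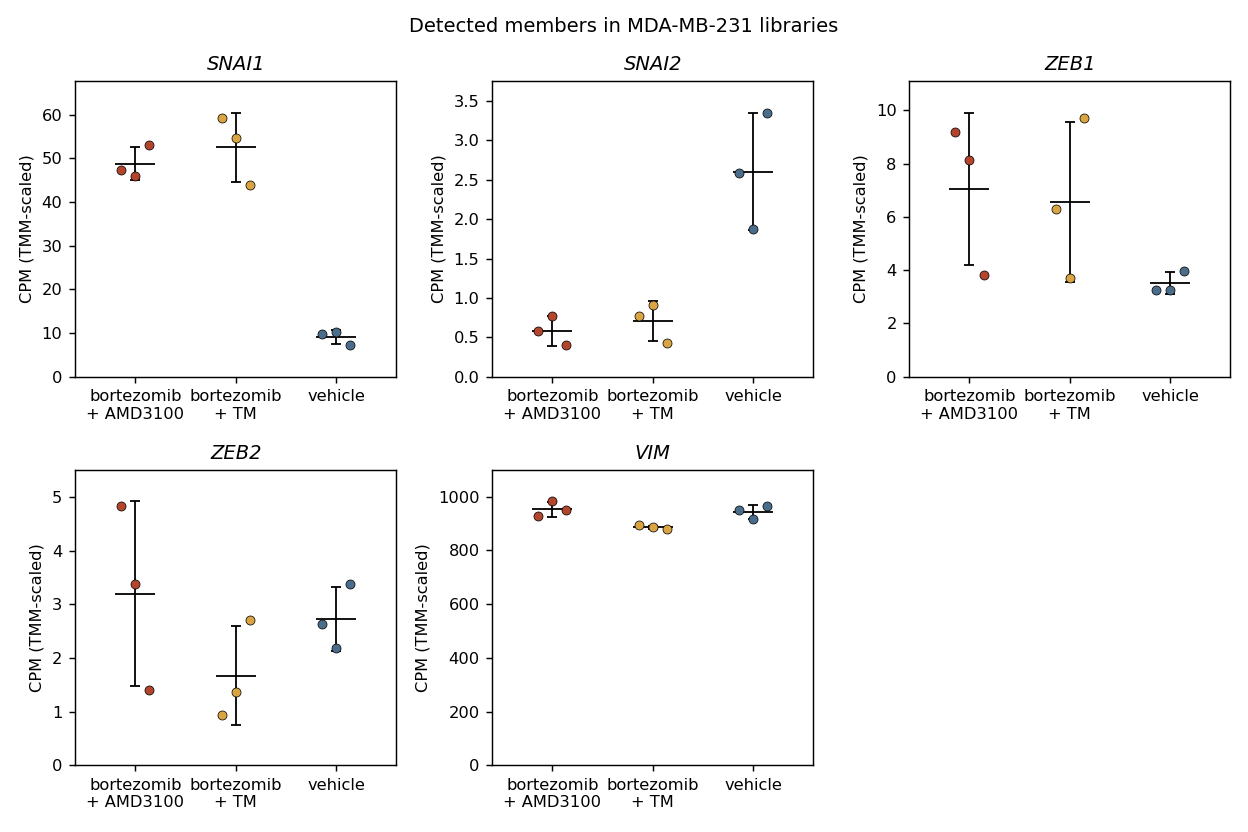
CPM of the 5 tested members in each MDA-MB-231 library, with the mean and SD of 3 libraries per group, for bortezomib with AMD3100, bortezomib with TM and vehicle from left to right. The SNAI1 points of both treated groups stand above vehicle and those of SNAI2 below it, while 1 ZEB1 library of each treated group lies at the vehicle level.

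Of the 5 members tested in MDA-MB-231, 3 were called under bortezomib with AMD3100, where 46.5% of all genes were called, and 2 under bortezomib with TM, where 51.7% were. Libraries did not overlap vehicle for 2 of 5 members with AMD3100, against 57.9% of all genes, and for 3 of 5 with TM, against 58.4%. Neither count of members is a result about them, since calls were about as common among all genes.

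The values in MDA-MB-231 depend on how libraries are scaled. TMM factors were 0.874 to 0.945 in treated and 1.14 to 1.25 in vehicle libraries. With total-count scaling in place of TMM the median log2 change of all genes moved to -0.41 with AMD3100, against -0.05 with TMM, and to -0.51 with TM, against -0.09 with TMM. The split of called genes moved to 2108 higher and 6308 lower with AMD3100, where TMM gave 3678 and 3997, and to 2195 higher and 7146 lower with TM, where TMM gave 3981 and 4546. SNAI1 stayed higher and SNAI2 lower on both scales. VIM had a log2 change of -0.35 with AMD3100 and -0.51 with TM (adjusted p = 0.000127) under total-count scaling, close to the median gene, and was called lower in both, and ZEB2 turned to -0.14 with AMD3100.

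**Figure D3:**
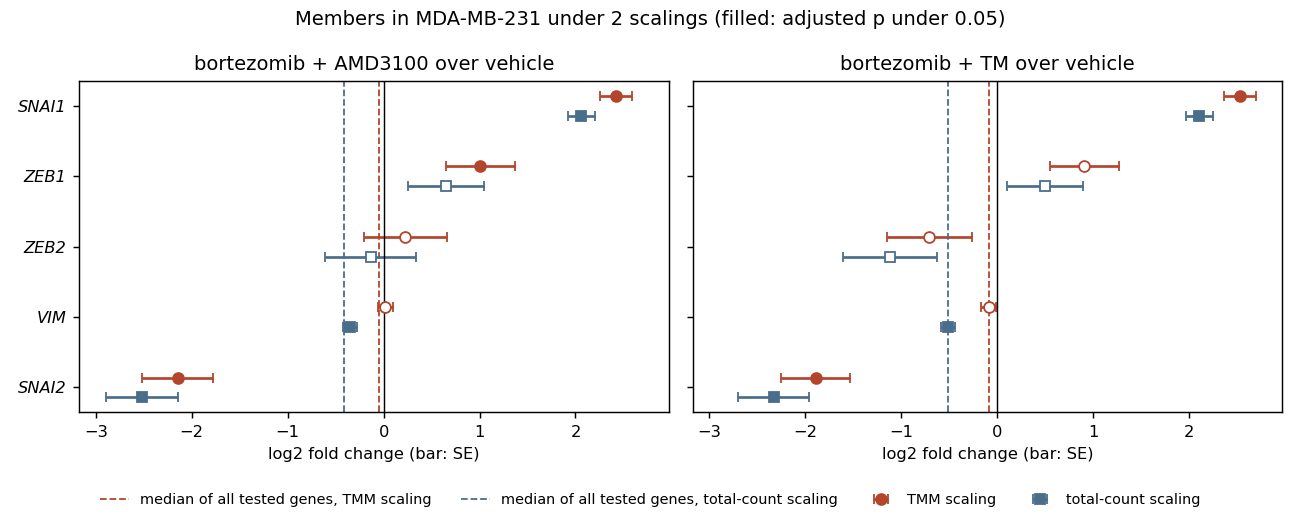
Log2 fold change over vehicle of the 5 tested members in MDA-MB-231 for bortezomib with AMD3100 (left) and bortezomib with TM (right), with TMM scaling (circles) and total-count scaling (squares); bars are SE, filled symbols passed an adjusted p of 0.05, and dashed lines mark the median of all tested genes. SNAI1 and SNAI2 keep their sides of 0 on both scales, and VIM follows the median line.

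Between the combinations, no member and no gene of 16498 tested differed in MDA-MB-231 at an adjusted p under 0.05, which is 0% of genes. By edgeR 1464 genes had an unadjusted p under 0.05, and DESeq2 called 70. The count of 0 depends on TM replicate 3, which differed from its group's other libraries by a mean chi-square per gene of 128 and 79.2, where those differed by 22.8. Without that library edgeR called 183 genes, 138 higher and 45 lower under bortezomib with AMD3100, with 3406 at an unadjusted p under 0.05. The difference of bortezomib with AMD3100 over bortezomib with TM was -0.11 (SE 0.16) for SNAI1, -0.26 (SE 0.39) for SNAI2, 0.10 (SE 0.36) for ZEB1 and 0.10 (SE 0.08) for VIM on the log2 scale. ZEB2 had the largest difference, 0.94 (SE 0.45, adjusted p = 0.571). VIM was the only 1 of 5 tested members whose libraries did not overlap between the combinations, where 13.4% of all genes did not.

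Counts for the lists around the members stand against the 46.5% of all genes called with AMD3100 and the 51.7% called with TM. Of the 10 tested other factors of the transition none was higher, and 4 were lower with AMD3100 and 5 with TM. These shares are close to those of all genes called in either direction. Of the 16498 genes tested, 3997 were lower with AMD3100 and 4546 with TM. SOX9, a stem cell factor, averaged 13.4 ± 1.01 CPM under bortezomib with AMD3100 and 8.54 ± 1.63 CPM under bortezomib with TM, against 65.4 ± 1.35 CPM under vehicle. FOXQ1, a forkhead factor, averaged 1.35 ± 0.102 CPM with AMD3100 and 1.109 ± 0.342 CPM with TM, against 20.5 ± 2.74 CPM under vehicle. For FOXQ1 the log2 fold change was -3.92 (SE 0.25, adjusted p = 2.94e-07) with AMD3100 and -4.21 (SE 0.25, adjusted p = 1.49e-07) with TM, and that of SOX9 was -2.29 (SE 0.15) and -2.94 (SE 0.16) in the same order. The median over the list was -0.49 with AMD3100 and -0.69 with TM, and with total-count scaling 6 and 8 of the 10 were lower.

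Of 15 tested mesenchymal and matrix genes 5 were higher and 3 lower with AMD3100, and 5 were higher and 5 lower with TM, at medians of 0.09 and -0.12. Total-count scaling gave 2 higher and 8 lower in both. The genes with the smallest p were AXL, at 548 ± 25.3 CPM with AMD3100 and 496 ± 23.6 CPM with TM, against 1148 ± 125 CPM under vehicle, and the matrix glycoprotein gene TNC, at 5.15 ± 1.48 and 4.33 ± 0.527 CPM, against 29.2 ± 5.40 CPM under vehicle. Both were lower. Of 12 tested TGF-beta pathway genes 2 were higher and 4 lower with either partner, and with total-count scaling 1 was higher and 4 lower with AMD3100 and none higher and 6 lower with TM. SMAD3, a signal transducer of the pathway, averaged 99.98 ± 1.99 CPM with AMD3100 and 85.8 ± 7.09 CPM with TM, against 250.7 ± 18.3 CPM under vehicle, and was lower. The other gene with the smallest p was the inhibitor SMAD7 with AMD3100, at 4.72 ± 0.393 CPM against 11.8 ± 1.106 CPM, and the ligand TGFB2 with TM, at 3.83 ± 1.119 CPM against 14.6 ± 1.96 CPM, both lower.

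Among epithelial genes, the junction genes were lower where they were called. Of 11 tested junction genes none was higher, and 3 were lower with AMD3100 and 4 with TM, while total-count scaling gave 5 and 7 lower and none higher. The plakophilin gene PKP3 averaged 29.5 ± 2.55 CPM with AMD3100 and 28.3 ± 4.29 CPM with TM, against 73.7 ± 10.2 CPM under vehicle, and the desmoplakin gene DSP averaged 21.1 ± 3.18 and 11.5 ± 2.69 CPM, against 34.5 ± 5.51 CPM. The call of DSP with AMD3100 was lost without vehicle replicate 1. CDH1, the textbook target of SNAI1, had 0 to 6 counts in every MDA-MB-231 library, so a change in it was not detectable at this depth. Of 7 tested epithelial regulators 1 was higher and 1 lower with AMD3100, and 1 higher and 3 lower with TM, while total-count scaling gave 1 higher and 2 lower with AMD3100 and 1 higher and 4 lower with TM. KLF5 was the higher one, at 29.2 ± 3.06 CPM with AMD3100 and 27.1 ± 1.27 CPM with TM, against 14.1 ± 2.90 CPM under vehicle. The lower ones included the RNA-binding protein gene RBM47 with TM (0.492 ± 0.299 CPM against 1.55 ± 0.183 CPM). GRHL3 was the lower one with AMD3100, at 0.035 ± 0.061 CPM against 0.359 ± 0.056 CPM under vehicle. Its treated level lies close to the limit that a count of 0 allows, so no fold is given, and the call was lost without AMD3100 replicate 1, AMD3100 replicate 2 or vehicle replicate 3. Of 6 tested keratin genes 4 were higher and 1 lower with AMD3100, and 4 higher and none lower with TM. With total-count scaling 2 were higher and 2 lower with AMD3100, and 4 higher and 1 lower with TM. KRT17 averaged 3.17 ± 0.322 CPM with AMD3100 and 3.72 ± 0.287 CPM with TM, against 0.050 ± 0.048 CPM under vehicle, and KRT14 averaged 2.53 ± 1.20 and 2.72 ± 0.894 CPM, against 0.055 ± 0.081 CPM. These keratins are close paralogs, and counting could split reads between them. Of 3 tested fibroblast genes PDGFRB was higher with both partners and COL1A1 lower with TM. The summed list stood at 22.6 to 24.4 CPM with AMD3100 and 18.5 to 20.3 CPM with TM, against 13.3 to 17.7 CPM under vehicle. Most of that sum was PDGFRB (3.94 to 16.6 CPM over all MDA-MB-231 libraries) and COL1A1 (4.35 to 12.2 CPM). DCN, LUM and FAP had no count in any of them. The part of the fibroblast list in the changes above was not tested. The summed B cell, T cell, neutrophil and macrophage lists each stayed at or below 6.38 CPM in every MDA-MB-231 library. Of 3 tested endothelial genes 2 were lower with AMD3100 and 3 with TM, from summed levels of at most 1.51 CPM, and of 5 tested pericyte genes 1 was higher and 1 lower with either partner. VIM-AS1, antisense to VIM, was lower at 0.753 ± 0.306 CPM with AMD3100 and 0.658 ± 0.125 CPM with TM, against 2.09 ± 0.860 CPM under vehicle.

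Over the 9 MDA-MB-231 libraries, the genes whose log2 CPM most resembled that of SNAI1, among 9107 with a mean of at least 5 CPM, were BBC3, SURF4 and SPHK1, each at a Pearson r of 0.999. BBC3 encodes PUMA, a cell death protein, SURF4 a cargo receptor of the endoplasmic reticulum and SPHK1 a sphingosine kinase. The 6 treated and 3 vehicle libraries, which lay far apart for SNAI1, all enter this likeness.

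In libraries labelled HCC1937, FOXC2 was higher under TM, and no member was called under AMD3100. FOXC2 had 21.8, 17.8 and 18.4 CPM under AMD3100 and 26.3, 24.3 and 25.5 CPM under TM, against 17.9, 17.6 and 18.04 CPM under vehicle. The TM libraries lay above all others, and those of AMD3100 overlapped vehicle. TM over vehicle gave a log2 fold change of 0.51 (SE 0.11, adjusted p = 0.0266), and it was lost without any 1 of the TM or vehicle libraries (adjusted p from 0.0926 to 0.130). FOXC2 was 1 of 6 tested members called, where 7.07% of all genes were called. FOXC2-AS1, antisense to it, had 0, 35 and 54 counts under AMD3100 and 39, 38 and 31 under TM, against 16, 43 and 38 under vehicle.

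SNAI1 had 7.52, 14.7 and 15.6 CPM under AMD3100 and 17.97, 16.8 and 18.1 CPM under TM, against 13.5, 11.99 and 10.8 CPM under vehicle. The TM libraries stood above vehicle, and 2 of the AMD3100 libraries stood above it while replicate 1 stood below it. SNAI2 had 23.2, 16.9 and 13.6 CPM under AMD3100 and 24.01, 20.6 and 22.997 CPM under TM, against 15.4, 18.6 and 19.7 CPM under vehicle. Here too the TM libraries lay above vehicle. Under TM the log2 fold change was 0.54 (SE 0.24, adjusted p = 0.260) for SNAI1 and 0.33 (SE 0.19, adjusted p = 0.406) for SNAI2, and under AMD3100 it was 0.06 (SE 0.25) for SNAI1 and -0.0016 (SE 0.19) for SNAI2.

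VIM had 814, 374 and 372 CPM under AMD3100 and 292, 285 and 282 CPM under TM, against 370, 376 and 380 CPM under vehicle. The TM libraries lay below vehicle, AMD3100 replicates 2 and 3 lay among vehicle, and AMD3100 replicate 1 was far above. For VIM the log2 fold change was -0.39 (SE 0.27, adjusted p = 0.498) under TM and 0.47 (SE 0.27) under AMD3100. ZEB1 showed the same library apart, with 31.7, 10.4 and 8.90 CPM under AMD3100 and 11.03, 10.4 and 11.8 CPM under TM, against 11.1, 12.4 and 12.2 CPM under vehicle. Its antisense transcript ZEB1-AS1 had 20, 135 and 128 counts under AMD3100 and 111, 85 and 111 under TM, against 126, 153 and 163 under vehicle. In AMD3100 replicate 1, ZEB1 was thus highest and ZEB1-AS1 lowest of the 9 libraries. ZEB2 had 4.14, 1.15 and 1.66 CPM under AMD3100 and 3.27, 2.57 and 2.36 CPM under TM, against 1.85, 2.82 and 2.64 CPM under vehicle, with overlap throughout and replicate 1 of AMD3100 highest.

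**Figure D4:**
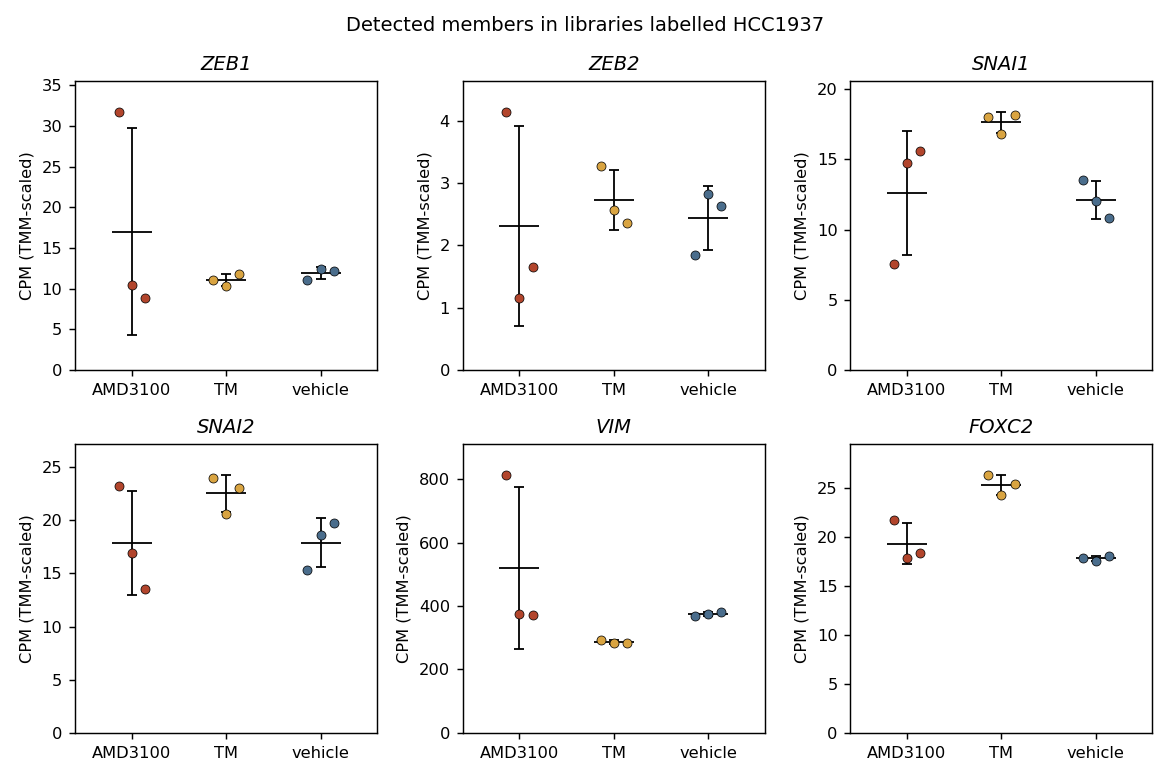
CPM of the 6 tested members in each library labelled HCC1937, with the mean and SD of 3 libraries per group, for AMD3100, TM and vehicle from left to right. Replicate 1 of AMD3100 is the highest point for ZEB1, ZEB2 and VIM and the lowest for SNAI1, while the TM libraries stand together above vehicle for SNAI1, SNAI2 and FOXC2 and below it for VIM.

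Leaving out AMD3100 replicate 1, which enters the estimate of spread for every comparison in this table, changed the calls. Under TM over vehicle, SNAI1 (0.54, adjusted p = 4.28e-05), SNAI2 (0.33, adjusted p = 0.00798) and FOXC2 (0.51) were then higher and VIM (-0.39, adjusted p = 1.28e-09) lower, which is 4 of 6 members where 40.8% of all genes were called. The fold changes were the same as before and the spread was smaller. With all libraries these same 4 members were the ones whose TM and vehicle libraries did not overlap, where 51.6% of all genes did not. Under AMD3100 over vehicle, with all libraries 0% of genes and 0 of 6 members were called by edgeR, with 951 genes at an unadjusted p under 0.05 and 39 called by DESeq2, and no member was without overlap where 11.4% of all genes were. Without replicate 1, SNAI1 was higher by a log2 fold change of 0.34 (SE 0.11, adjusted p = 0.0483), where 8.14% of genes were called, ZEB1 had -0.28 and ZEB2 -0.78 (adjusted p = 0.0775). AMD3100 replicate 1 gave a mean ZEB1 of 17.02 ± 12.7 CPM for its group (SD, n = 3), against 9.67 CPM as the mean of the other 2 libraries.

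AMD3100 over TM, both given alone at 10 µM in HCC1937, called none of 6 members where 8.22% of all genes were called. VIM had a log2 difference of 0.86 (SE 0.27, adjusted p = 0.0908), FOXC2 -0.39 (SE 0.11, adjusted p = 0.0620) and SNAI1 -0.48 (SE 0.24, adjusted p = 0.259), the 3 members whose libraries did not overlap, where 33.6% of all genes did not. Without AMD3100 replicate 1, VIM was higher by 0.40 (adjusted p = 6.78e-09), and FOXC2 (-0.47, adjusted p = 0.000107), SNAI2 (-0.54, adjusted p = 0.000322) and ZEB2 (-0.94, adjusted p = 0.00674) were lower under AMD3100, where 36.5% of all genes were called.

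Counts for the lists under TM over vehicle in HCC1937 stand against the 7.07% of all genes called. No other factor of the transition was called of 7 tested. Of 14 tested mesenchymal and matrix genes 4 were higher and 1 lower, at a median of 0.08. The hyaluronan receptor gene CD44 averaged 209.6 ± 0.746 CPM under TM and 127 ± 2.72 CPM under vehicle (log2 fold change 0.72, SE 0.11). Of 7 tested epithelial regulators 2 were higher and 2 lower, ELF3 higher at 70.1 ± 0.970 CPM under TM and 43.5 ± 1.18 CPM under vehicle, and TFAP2A lower at 139 ± 2.85 CPM under TM and 243 ± 18.8 CPM under vehicle. Of 10 tested junction genes 2 were lower, PKP3 at 72.5 ± 0.549 CPM under TM and 97.6 ± 3.96 CPM under vehicle, and the cingulin gene CGN at 7.37 ± 1.38 CPM under TM and 18.99 ± 1.51 CPM under vehicle. TGFBR2, a receptor, was the 1 higher gene of 12 tested in the TGF-beta pathway, at 30.2 ± 0.111 CPM under TM and 19.8 ± 0.964 CPM under vehicle. Of 5 tested keratin genes KRT17 was higher (10.0 ± 1.17 CPM under TM and 4.90 ± 0.682 CPM under vehicle) and KRT18 lower (442 ± 13.5 CPM under TM and 644 ± 19.1 CPM under vehicle). The calls of PKP3, CGN and KRT18 were each lost without any 1 of the TM or vehicle libraries. That of KRT17 was lost without TM replicate 1, vehicle replicate 1 or vehicle replicate 3, and that of TGFBR2 without TM replicate 2 or vehicle replicate 3. Without AMD3100 replicate 1, where 40.8% of all genes were called, TM over vehicle gave 8 higher and 1 lower of 12 TGF-beta pathway genes, 5 and 4 of 15 matrix genes, 2 and 4 of 7 epithelial regulators, 2 and 2 of 10 junction genes, 3 and 3 of 6 keratins and 1 and 1 of 7 other factors. The summed fibroblast list stood at 132 to 171 CPM under AMD3100 and 219 to 227 CPM under TM, against 142 to 147 CPM under vehicle, with 1 of 4 tested genes, COL1A1, called under TM, a call lost without any 1 of the TM or vehicle libraries. The summed macrophage list stood at 7.01 to 9.21 CPM under AMD3100 and 12.4 to 13.7 CPM under TM, against 7.19 to 8.28 CPM under vehicle. Of its 2 tested genes CSF1R was called higher under TM, a call likewise lost without any 1 of those libraries. Most of the fibroblast sum was COL1A1, at 126.9 to 217.0 CPM over the 9 libraries. Most of the macrophage sum was CSF1R (5.20 to 10.8 CPM) and ADGRE1 (1.32 to 3.28 CPM), while C1QA and C1QB had no count. The part of these marker lists in the values above was not tested. The T cell list stayed at or below 2.38 CPM. Under AMD3100 over vehicle no gene of these lists was called with all libraries, where 0% of all genes were. Without replicate 1, where 8.14% of all genes were called, at most 3 genes of any list were. The 3 were 1 higher and 2 lower among the 7 epithelial regulators. Under AMD3100 over TM, CD44 (138 ± 20.9 CPM under AMD3100 and 209.6 ± 0.746 CPM under TM), ELF3 (37.2 ± 0.849 and 70.1 ± 0.970 CPM) and TGFBR2 (17.9 ± 0.628 and 30.2 ± 0.111 CPM) were lower, while PKP3 was higher (104 ± 11.6 and 72.5 ± 0.549 CPM). Leaving out TM replicate 1, 2 or 3 ended the calls of CD44 and PKP3, and leaving out AMD3100 replicate 2 ended that of PKP3. With all libraries 3 of 14 matrix genes and 3 of 12 TGF-beta pathway genes were lower under AMD3100 than under TM and none higher. The share of all genes called there was 8.22%. Without AMD3100 replicate 1, where 36.5% of all genes were called, 5 of 15 matrix genes were lower and 2 higher. Of 12 pathway genes 8 were then lower and none higher.

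FOXC2 was most like PATL1 (Pearson r 0.995), BAZ2A (0.990) and RPS27L (0.990) over the 9 libraries, among 10408 genes of at least 5 CPM on average. The TM libraries, which lay above all others for FOXC2, enter this likeness.

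In 4T1 tumours all 10 members were detected and none was called. These are bulk tumours that hold host cells beside tumour cells, so fewer cells of a type and less RNA per cell cannot be told apart. In all 3 comparisons 0% of 15846 tested genes were called by edgeR. Unadjusted p-values under 0.05 numbered 1144 for bortezomib with AMD3100 over vehicle, 688 for bortezomib with TM over vehicle and 454 between the combinations, and DESeq2 called 17, 3 and 6 genes in that order.

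Cdh2, the N-cadherin gene, was the member whose treated tumours did not overlap vehicle. It had 3.25, 1.88 and 2.16 CPM under bortezomib with AMD3100, from 148, 73 and 111 counts, and 2.45, 2.66 and 1.53 CPM under bortezomib with TM, from 99, 125 and 59 counts, against 0.944, 1.37 and 0.854 CPM under vehicle, from 40, 54 and 40 counts. Every treated tumour lay above every vehicle tumour. The log2 fold change was 1.20 (SE 0.37, adjusted p = 0.634) with AMD3100 and 1.07 (SE 0.37, adjusted p = 0.887) with TM, so neither passed. Cdh2 was the 1 of 10 members without overlap in either comparison, where 13.4% of all genes with AMD3100 and 9.97% with TM did not overlap.

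Zeb1 had 22.7, 10.3 and 15.3 CPM under bortezomib with AMD3100 and 21.4, 11.8 and 8.02 CPM under bortezomib with TM, against 11.9, 7.84 and 8.74 CPM under vehicle. Both treated groups overlapped vehicle, and replicate 1 was highest in each group. Its log2 fold change was 0.76 (SE 0.39, adjusted p = 0.634) with AMD3100 and 0.53 (SE 0.39, adjusted p = 0.887) with TM. The summed level of 5 B cell genes was 582, 4.23 and 321 CPM under bortezomib with AMD3100 and 395, 182 and 1.64 CPM under bortezomib with TM, against 1.58, 5.16 and 97.5 CPM under vehicle. That of 7 T cell genes was 528, 56.2 and 256 CPM and 328, 124 and 52.9 CPM, against 47.4, 20.5 and 112 CPM in the same order. Within each treated group the tumours ranked alike for Zeb1 and for both lymphocyte lists, the vehicle tumours did not, and the part of these cells in the Zeb1 values was not tested.

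Snai2 had 3.19, 0.748 and 2.12 CPM under bortezomib with AMD3100 and 2.15, 2.47 and 0.441 CPM under bortezomib with TM, against 1.02, 0.708 and 0.534 CPM under vehicle. In each treated group 2 tumours lay above vehicle and 1 lay within or below it. The log2 fold change was 1.42 (SE 0.69, adjusted p = 0.634) with AMD3100 and 1.17 (SE 0.69, adjusted p = 0.887) with TM, from 17 to 145 counts per tumour. Summed fibroblast marker levels were 4033 to 4957 CPM with AMD3100 and 2390 to 6577 CPM with TM, against 3028 to 5047 CPM under vehicle. Over the 9 tumours, Snai2 and the mean log2 level of the 10 fibroblast genes had a Pearson r of 0.68 (exact permutation p = 0.0469, adjusted p = 0.464 over 10 members) and a Spearman rho of 0.72 (exact permutation p = 0.0369, adjusted p = 0.333). Without the 2 tumours farthest from the median fibroblast level r was 0.53 (exact permutation p = 0.206), and over deviations from group means it was 0.61. For the other members r ran from -0.53 for Zeb2 to 0.54 for Cdh2, and no adjusted p was under 0.05.

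Zeb2, which host macrophages also express, hardly varied. It had 74.8, 94.6 and 77.0 CPM under bortezomib with AMD3100 and 87.1, 71.6 and 88.6 CPM under bortezomib with TM, against 85.9, 83.6 and 75.6 CPM under vehicle, with overlap and a log2 fold change of 0.01 (SE 0.13) in each. Summed macrophage markers were 1173 to 1517 CPM with AMD3100 and 973 to 1585 CPM with TM, against 1797 to 2085 CPM under vehicle, and did not overlap vehicle. Snai1 had 26.3, 32.4 and 29.2 CPM under bortezomib with AMD3100 and 22.4, 36.4 and 33.5 CPM under bortezomib with TM, against 34.9, 30.3 and 31.0 CPM under vehicle. The groups overlapped, at log2 fold changes of -0.13 with AMD3100 and -0.06 with TM (SE 0.18 each). Twist1, silent in both human lines, had 27.9, 45.8 and 45.2 CPM under bortezomib with AMD3100 and 25.6, 47.2 and 58.4 CPM under bortezomib with TM, against 50.5, 38.0 and 50.6 CPM under vehicle. Replicate 1 was lowest in both treated groups, and the log2 fold change was -0.23 with AMD3100 and -0.08 with TM (SE 0.30 each).

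Vim was abundant in every tumour, at 3247, 3713 and 3360 CPM under bortezomib with AMD3100 and 2410, 4698 and 4419 CPM under bortezomib with TM, against 3284, 3721 and 3691 CPM under vehicle. The groups overlapped, and the log2 fold change was -0.05 with AMD3100 and 0.11 with TM (SE 0.24 each). Foxc2 had 21.03, 26.8 and 27.2 CPM under bortezomib with AMD3100 and 22.01, 29.5 and 43.3 CPM under bortezomib with TM, against 41.4, 49.5 and 25.2 CPM under vehicle. Its log2 fold change was -0.63 (SE 0.29, adjusted p = 0.634) with AMD3100 and -0.29 (SE 0.29) with TM, and both treated groups overlapped vehicle.

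Grhl2 and Esrp1 were present in tumours, while GRHL2 and ESRP1 were close to silent in the human lines. The other listed epithelial regulators were mixed. In vehicle libraries TFAP2A stood at 194 ± 15.1 CPM and ELF3 at 34.7 ± 0.914 CPM in HCC1937. In MDA-MB-231 they stood at 0.749 ± 0.014 and 0.236 ± 0.056 CPM. KLF4 and KLF5 were present in both lines, at 40.2 and 22.4 CPM in HCC1937 and 27.2 and 17.3 CPM in MDA-MB-231. GRHL3, OVOL1, OVOL2, EHF and TP63 stayed at or below 0.35 CPM in every HCC1937 library. Grhl2 had 8.37, 11.3 and 8.78 CPM under bortezomib with AMD3100 and 8.75, 10.4 and 15.3 CPM under bortezomib with TM, against 13.6, 16.7 and 10.8 CPM under vehicle. Esrp1 had 18.6, 44.7 and 29.7 CPM under bortezomib with AMD3100 and 24.01, 33.96 and 47.9 CPM under bortezomib with TM, against 42.2, 42.6 and 36.8 CPM under vehicle. The groups overlapped for both genes. The log2 fold change with AMD3100 was -0.53 (SE 0.26, adjusted p = 0.634) for Grhl2 and -0.39 (SE 0.32, adjusted p = 0.735) for Esrp1, and with TM it was -0.25 (SE 0.26) and -0.20 (SE 0.32). Summed keratin markers, of tumour cells, were 1001 to 1272 CPM with AMD3100 and 1061 to 1901 CPM with TM, against 1537 to 2390 CPM under vehicle, and their part in the values of Grhl2 and Esrp1 was not tested.

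**Figure D5:**
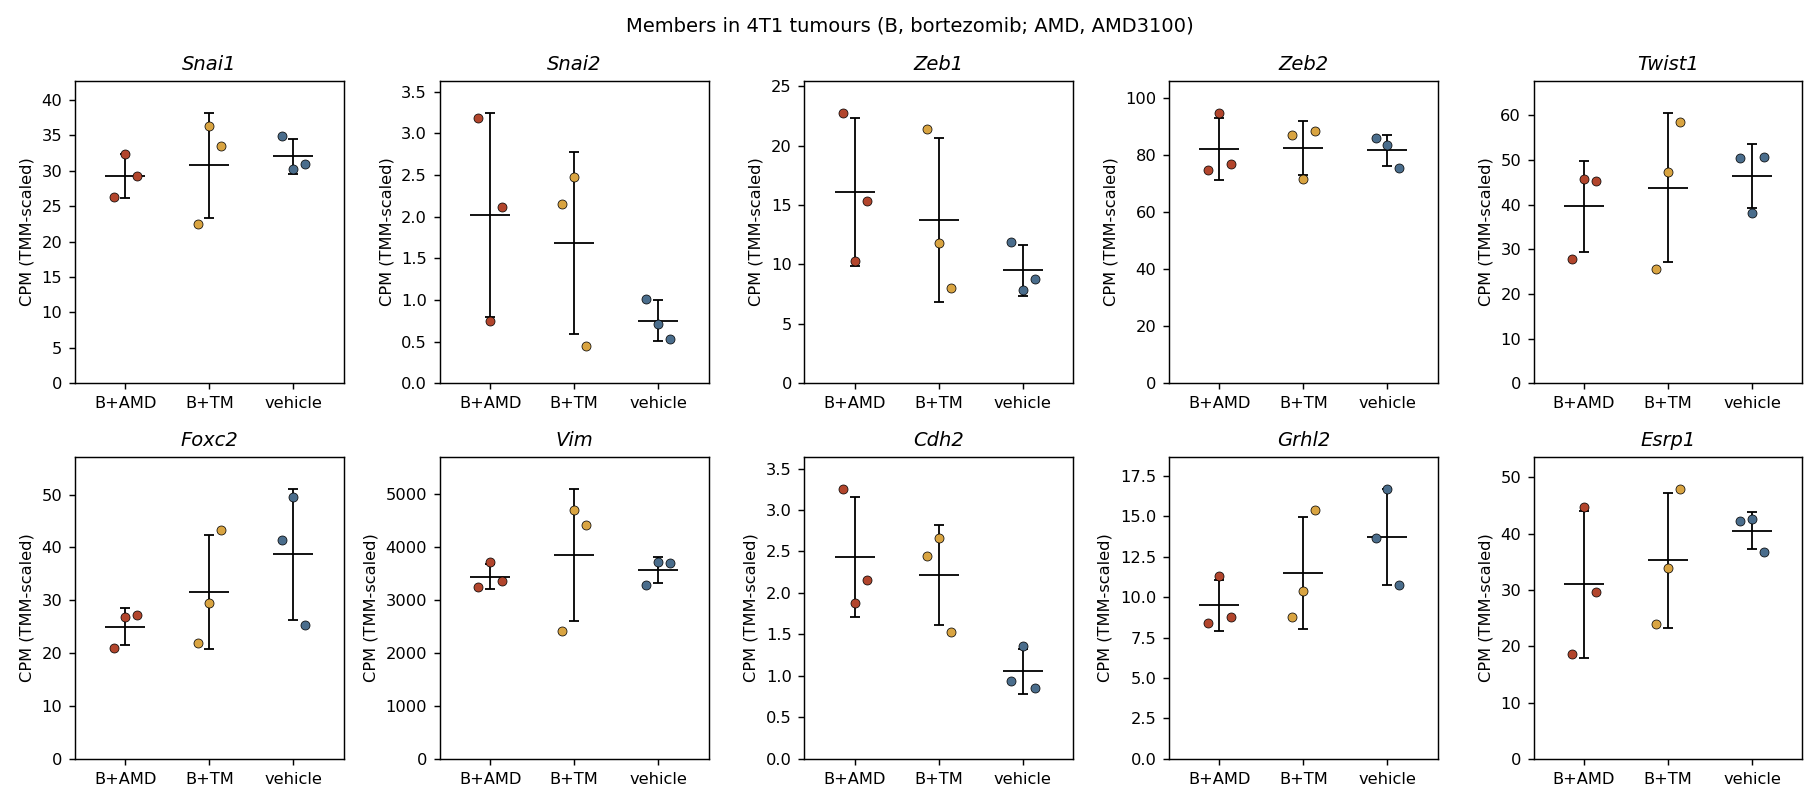
CPM of the 10 mouse orthologs in each 4T1 tumour, with the mean and SD of 3 tumours per group, for bortezomib with AMD3100, bortezomib with TM and vehicle from left to right. The Cdh2 points of both treated groups stand above vehicle, every other member overlaps vehicle in both, and no member passed the test.

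Between bortezomib with AMD3100 and bortezomib with TM in 4T1 tumours, the adjusted p of the members ran from 0.996 to 0.997 and no member's groups were without overlap, where 7.37% of all genes were. The log2 difference ran from -0.34 (SE 0.29) for Foxc2 to 0.26 (SE 0.67) for Snai2. No gene was called in the lists of other factors of the transition, matrix, epithelial regulator, junction, TGF-beta or keratin genes in any 4T1 comparison. The medians over the junction genes were -0.34 with AMD3100 and -0.24 with TM, and over the keratins -0.86 and -0.25, against 0.01 and 0.00 over all tested genes. Of the remaining marker lists, the summed endothelial genes stood at 166 to 333 CPM with AMD3100 and 146 to 364 CPM with TM, against 220 to 310 CPM under vehicle, the pericyte genes at 145 to 206 and 130 to 201 CPM, against 129 to 161 CPM, and the neutrophil genes at 43.2 to 86.2 and 57.9 to 93.6 CPM, against 90.3 to 127 CPM. Skeletal muscle and adipocyte genes summed to at most 65.7 CPM in any tumour. Over the 9 tumours, Cdh2 was most like Dusp10 (Pearson r 0.962), Nfatc2ip (0.954) and Prpf38b (0.947), among 11308 genes. The treated and vehicle tumours, which did not overlap for Cdh2, all enter this likeness.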

How the data were processed

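Levels start from read counts per gene that the authors deposited as 3 tables, 1 per dataset, of 9 libraries each. Per the labels' protocols, poly(A) mRNA came from Trizol extracts, and per the submitters' processing notes featureCounts 2.0.1, MultiQC 1.11 and the builds GRCh38 (human) and GRCm38 (mouse) were used. The sources used here give no aligner, annotation or strand setting. Of counts from 1 to 20, 56.9% to 66.1% were even, so counts may overstate fragments. Symbols were matched for 61481 of 78932 human features, and 142 of 145 listed human and 141 of 142 listed mouse genes were found. Columns were matched to libraries by title, and replicates differed by more than sampling noise (lowest mean chi-square per gene 4.92).

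Each table was fitted over 9 libraries, 1 coefficient per group, with edgeR 4.0.16 in R 4.3.3 (filterByExpr, TMM, quasi-likelihood F test). P-values were adjusted by Benjamini-Hochberg over all tested genes and called under 0.05. SE is the absolute log2 change over the square root of F. The human vehicle groups were compared in 1 fit of all 18 human libraries. Alternatives were DESeq2 1.42.0, limma 3.58.1 (voom), median-of-ratios scaling, no low-count filter, the compared groups alone, a replicate block and each library left out. Total-count scaling was added after the data were seen. Likeness is Pearson r of log2 CPM with 0.5 added, and fibroblast level is the mean of log2 CPM with 1 added. The fits were also run on counts simulated with the spread they estimate, and the outcome is not given here. Such a run cannot judge whether that spread suits these libraries. Figures used matplotlib 3.10.9 in Python 3.11.15, with pandas 2.3.3, and exact permutation tests used scipy 1.17.1 over all 362880 pairings.

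The members, lists and tests were chosen with earlier results of these data known. All 10 members are named in every group, and of each other list the 2 called genes with the smallest p, in sentences that also give its count. Results for 1 gene that this rule picks are not reported here. The 3 genes most like the member with the smallest p are named per table. Of the cell type marker lists mainly summed levels are given. Positions are from GENCODE release 29, and sequences from RefSeq. Limits at 0 counts cover counting error only.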

Additional observations from a re-analysis of the deposited data

How the results depend on the processing

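Counts of called members moved most in HCC1937. Under TM over vehicle the count was 1, where 7.07% of all genes were called. It was 4 with the compared groups fitted alone (44.8% of all genes), 0 with no low-count filter (2.66%), 0 with the replicate block (3.69%) and 0 to 4 with 1 library left out. It was 4 without AMD3100 replicate 1 (40.8%) and 0 without each TM or vehicle library (1.97% to 2.25%). Under AMD3100 over vehicle it was 0, and 0 to 1 with 1 library left out, the 1 without AMD3100 replicate 1 (8.14%). Under AMD3100 over TM it was 0 (8.22%), and 2 with DESeq2 (16.5%), 1 without the low-count filter (4.61%), 1 with total-count scaling (8.37%) and 0 to 4 with 1 library left out, the 4 without AMD3100 replicate 1 (36.5%). The cause was not tested. Total-count scaling gave 657 higher and 600 lower genes under TM over vehicle, against 576 and 800 with TMM, and 662 higher and 967 lower under AMD3100 over TM, against 898 and 701.

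Some values changed sign, and the cause was not tested. SNAI2 under AMD3100 over vehicle in HCC1937 was 0.00513 with the groups alone, 0.0142 with DESeq2 and 0.0144 with median-of-ratios scaling. Total-count scaling gave -0.14 for ZEB2 and -0.35 for VIM under bortezomib with AMD3100 in MDA-MB-231, and -0.15 for SNAI1 between the lines. Without the low-count filter Zeb2 in 4T1 was -0.00896 with AMD3100 and -0.00232 with TM. The correlation with the fibroblast level was -0.00499 for Vim without 2 tumours and 0.14 for Foxc2 over deviations.

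With 1 library left out, log2 changes in HCC1937 spanned -0.28 to 0.80 for ZEB1, -0.78 to 0.23 for ZEB2, -0.13 to 0.34 for SNAI1 and -0.21 to 0.15 for SNAI2 under AMD3100 over vehicle. ZEB2 spanned -0.0176 to 0.26 under TM over vehicle, and under AMD3100 over TM ZEB1 spanned -0.18 to 0.91 and ZEB2 -0.94 to 0.0722. In MDA-MB-231 with AMD3100 over vehicle ZEB2 spanned -0.18 to 0.59 and VIM -0.00427 to 0.0433, and between the combinations ZEB1 spanned -0.18 to 0.48. In 4T1 Zeb2 spanned -0.12 to 0.0703 with AMD3100 over vehicle. With TM over vehicle Zeb2 spanned -0.0435 to 0.10, Snai1 -0.20 to 0.13, Twist1 -0.35 to 0.19, Vim -0.0622 to 0.36 and Esrp1 -0.48 to 0.0175. Between the combinations Zeb1 spanned -0.10 to 0.67, Zeb2 -0.13 to 0.0580, Snai1 -0.27 to 0.0671, Snai2 -0.23 to 0.64, Twist1 -0.43 to 0.12, Vim -0.42 to 0.00997, Cdh2 -0.13 to 0.29 and Esrp1 -0.56 to 0.10.

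Deviations of same-numbered libraries from their group means correlated from -0.30 to 0.22 in HCC1937, -0.82 to 0.74 in MDA-MB-231 and -0.63 to 0.71 in 4T1. Libraries of different numbers were not compared, so these values cannot decide whether shared replicate numbers mark pairs. The main fits treated the libraries as unpaired. With the replicate block, 2 members were called under each combination in MDA-MB-231, where 41.4% of all genes were called with AMD3100 and 46.8% with TM. Low counts limit SNAI2 in MDA-MB-231 and Cdh2 and Snai2 in 4T1.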
